A study of Mus musculus with 6 samples.

Results

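The genes described here are the adiponectin receptor genes Adipor1 and Adipor2, 6 further genes of the PAQR family (Paqr3, Paqr4, Paqr6, Paqr7, Paqr8 and Paqr9), and Cdh13, which encodes the adiponectin-binding surface protein T-cadherin. They were taken by symbol and are 9 of 17342 named genes. RNA came from the inguinal white fat, which lies under the skin, of cold-stimulated C57BL/6 mice aged 8 weeks, in 3 wild-type (WT) libraries numbered 1 to 3 and 3 Rarres2-/- libraries numbered 4 to 6. Rarres2 encodes chemerin, a protein secreted by adipocytes, and the comparison asks how its loss changes expression in cold-stimulated fat. Both genotypes were cold stimulated and no unstimulated fat was analysed here. The deleted part of Rarres2, the temperature and length of the cold, and whether each library is a separate mouse are not stated in the labels, so p-values measure the spread between libraries, which may be technical. Values are FPKM, fragments scaled to transcript length and library total, so levels can be compared between genes. In bulk tissue, fewer cells of a type and less RNA per cell cannot be told apart.

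PAQR proteins cross the membrane several times and fall into adiponectin receptors, membrane progesterone receptors (the products of Paqr5 to Paqr9) and other members such as Paqr3, Paqr4, Mmd and Mmd2. AdipoR1 and AdipoR2 bind adiponectin, the most abundant hormone of adipocytes, signal through AMP-activated protein kinase and the nuclear receptor PPARα, and have ceramidase activity. T-cadherin is held on the cell surface by a lipid anchor, has no cytoplasmic domain, and retains adiponectin on vascular cells.

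The members were selected on their place in the adiponectin receptor family and with earlier results of these libraries known, in which Paqr9 was one of the genes with separated genotypes and the smallest p-values. The genotype differences of the 9 genes are therefore given as a description, with no test. Across all genes whose mean reached 1 FPKM, limma called 0 of 11086 (0%) between genotypes at a Benjamini-Hochberg adjusted p under 0.05. An unadjusted p under 0.05 was found for 436, which is a smaller share than the 0.05 given by this threshold where no gene differs. The groups did not overlap in 10.3% of tested genes, with all 3 Rarres2-/- libraries above all 3 WT libraries in 5.81% and below them in 4.53%. Of the 9 genes, 7 passed the filter on low values, and Paqr6 and Paqr8 did not.

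Rarres2 was at 436, 610 and 505 FPKM in WT and at 0.260, 6.35 and 1.41 FPKM in Rarres2-/-. Its log2 difference was -7.51, yet limma did not call it either (adjusted p = 0.0597). A gene that is not called here is therefore not shown to be unchanged. Relative depth, read from the spacing of the lowest values, was 0.480 to 1.01 of that of WT replicate 2, and was lowest in WT replicate 1. WT replicate 1 and Rarres2-/- replicate 4 stood apart from the other 4 libraries. They were singled out after the data were seen, and so were the counts of markers high in both. In both, 9 of 10 endothelial markers and 9 of 9 smooth muscle and pericyte markers lay above the other 4 libraries, as did 13.7% of all tested genes. Adipocyte markers summed to 62835 to 78513 FPKM in WT and to 44580 to 81146 FPKM in Rarres2-/-, lowest in replicate 4, and brown and beige adipocyte markers to 1247 to 1339 and 741 to 1702 FPKM. These sums are carried by a few genes such as Fabp4 and Cfd. Gene by gene, 10 of 12 adipocyte markers had a log2 difference above 0 (median 0.25), where 48.6% of all tested genes did. In 5 of them, Acsl1, Cd36, Cidec, Lipe and Plin1, all Rarres2-/- libraries lay above all WT libraries, as in 5.81% of tested genes. Cfd had them all below, as did 4.53% of tested genes. Of 8 brown and beige markers, 6 were above 0 (median 0.25). In 3, Dio2, Otop1 and Ucp1, the groups were apart, each higher, beside the same 5.81%. Without WT replicate 1 and Rarres2-/- replicate 4 these medians were 0.44 and 0.36. By limma 0 markers of either list passed the test. Macrophage markers summed to 491 to 2062 FPKM in WT against 947 to 1219 FPKM in Rarres2-/-, and progenitor and fibroblast markers to 1162 to 5382 and 2224 to 2465 FPKM, both lowest in WT replicate 1. Skeletal muscle markers summed to 191 to 1525 and 318 to 539 FPKM, Schwann cell markers to 166 to 412 and 213 to 259 FPKM, lymphocyte markers to 3.15 to 42.7 and 6.23 to 20.9 FPKM, cycling cell markers to 7.90 to 9.28 and 4.91 to 7.27 FPKM, and epithelial markers to no more than 1.66 FPKM in any library.

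The levels differed widely between the genes. Adipor2 was the highest of the 9 genes, with a mean of 211 FPKM over all libraries, and 3.87% of tested genes were at or above it. Adipor1 followed at 87.9 FPKM, then Paqr9 at 20.9, Paqr4 at 19.9, Paqr7 at 8.02, Cdh13 at 7.30, Paqr3 at 1.24, Paqr6 at 0.927 and Paqr8 at 0.271 FPKM. The order of Adipor2 over Adipor1, of Adipor1 over Paqr9, of Paqr4 over Paqr7 and of Cdh13 over Paqr3 held in 6 of 6 libraries without overlap. Paqr9 and Paqr4 were not separated, with Paqr9 above Paqr4 in 0 of 3 WT libraries and 2 of 3 Rarres2-/- libraries. Paqr7 exceeded Cdh13 in 4 of 6 libraries and Paqr3 exceeded Paqr6 in 4 of 6, so these neighbours did not differ beyond their spread.

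**Figure D1:**
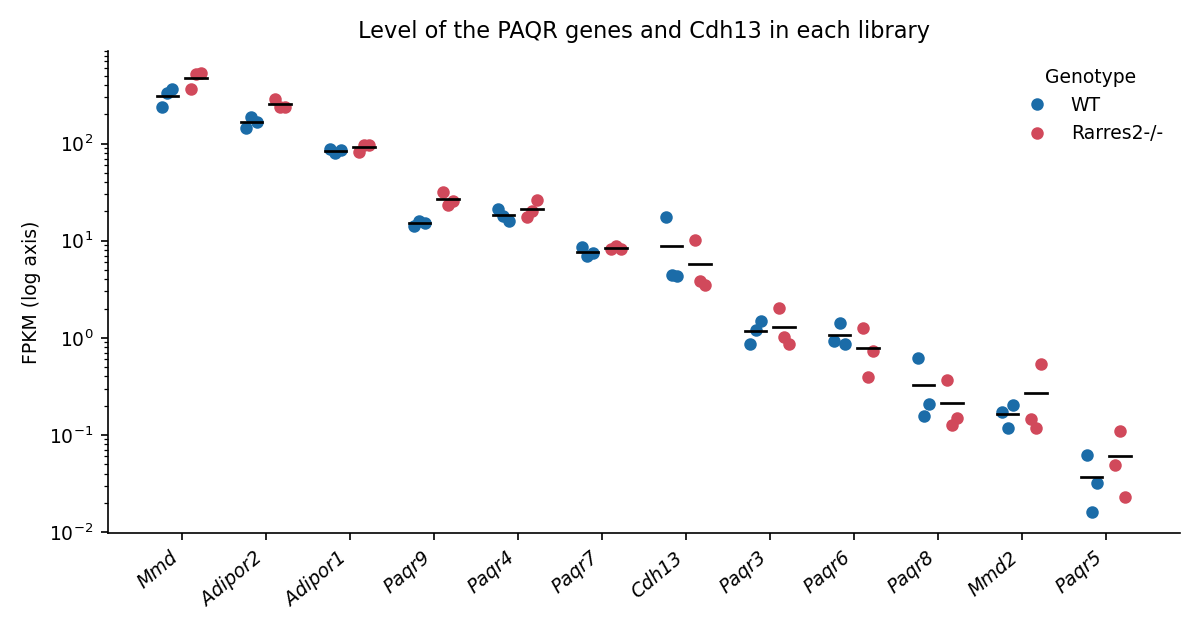
FPKM on a log axis of the 9 genes and of the further family genes Mmd, Mmd2 and Paqr5 in each library (points, coloured by genotype), with the mean of each genotype as a black bar. Adipor2 and Paqr9 have all 3 Rarres2-/- points above the 3 WT points, while Cdh13 and Paqr8 have 1 high library in each genotype.

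Of the adiponectin receptors, Adipor2 (chromosome 6, 119353150 to 119417699, GRCm38) was higher in Rarres2-/- and Adipor1 (chromosome 1, 134415378 to 134433351) overlapped between genotypes. Adipor2, the receptor more closely tied to PPARα, was at 143, 188 and 167 FPKM in WT replicates 1, 2 and 3 and at 290, 238 and 238 FPKM in Rarres2-/- replicates 4, 5 and 6. Each Rarres2-/- library lay above the highest WT library, and Rarres2-/- replicate 4 was highest of all. The mean was 166 ± 22.7 FPKM in WT against 255 ± 30.3 FPKM in Rarres2-/- (SD, n = 3 each), 1.54 times as high, and the difference was 0.62 on the log2(FPKM + 1) scale (SE 0.190). Of 12 adipocyte markers, 5 were separated in the same direction as Adipor2, Cfd was separated in the opposite direction, and the rest overlapped. Over all tested genes these shares were 5.81% higher and 4.53% lower. Acsl1, of the 5, was at 547, 645 and 619 FPKM in WT against 840, 1055 and 985 FPKM in Rarres2-/-. Plin1, also of the 5, was at 530, 602 and 526 against 844, 680 and 844 FPKM. Cfd was at 25750, 17260 and 13420 FPKM in WT against 10470, 11750 and 12330 FPKM in Rarres2-/-. The part of adipocyte content in the values of Adipor2 and Paqr9 was not tested. Adipor1, the receptor more closely tied to AMP-activated protein kinase, was at 87.2, 79.4 and 85.0 FPKM in WT and at 81.5, 96.8 and 97.3 FPKM in Rarres2-/-. Its highest library was 1.22 times its lowest, where the median of tested genes was 1.74, and its log2 difference was 0.13 (SE 0.155).

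Sequence upstream of the receptor genes is shown because they are paralogs of which 1 had separated genotypes and the other did not. The 250 bases before an annotated start of each are from RefSeq on GRCm38.p6, 5′ to 3′ on the gene's strand, with GC boxes (GGGCGG on either strand, the letters bound by Sp-family factors) in capitals. The windows are chr1:134415128-134415377 on the plus strand for Adipor1 and chr6:119388735-119388984 on the minus strand for Adipor2, which has a further start upstream. RefSeq also has another Adipor1 window, chr1:134415414-134415663, which is not printed.
Adipor1: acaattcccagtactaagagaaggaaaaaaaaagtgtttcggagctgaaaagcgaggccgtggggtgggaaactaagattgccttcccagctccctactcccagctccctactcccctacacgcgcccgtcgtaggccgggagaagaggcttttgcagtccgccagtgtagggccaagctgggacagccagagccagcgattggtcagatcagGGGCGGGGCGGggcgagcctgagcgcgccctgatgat
Adipor2: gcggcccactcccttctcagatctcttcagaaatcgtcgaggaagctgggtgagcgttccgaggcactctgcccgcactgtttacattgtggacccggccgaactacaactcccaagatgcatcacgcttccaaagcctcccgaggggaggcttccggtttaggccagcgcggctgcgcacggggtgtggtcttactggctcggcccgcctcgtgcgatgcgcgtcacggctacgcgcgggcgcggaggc
The Adipor1 window held 2 GC boxes, which overlap by their end base, and the Adipor2 window held 0, and 32.7% of 32851 RefSeq promoter windows of this length held at least 1. The CCAAT box (CCAAT, either strand, in 33.8% of windows) occurred once in this Adipor1 window, in the reverse orientation, and not in that of Adipor2. Neither window held a cAMP response element (TGACGT, 6.47% of windows), which includes its full palindrome (TGACGTCA, 1.55%) or an E-box with a CG centre (CACGTG, 6.02%). GC content was 59.6% in the Adipor1 window and 64.8% in the Adipor2 window, against a median of 52.4% over all windows. The other Adipor1 window held 2 GC boxes, 0 CCAAT boxes and 79.2% GC, so neither the CCAAT contrast with Adipor2 nor the order of GC content holds for it. Of the 9 genes, 7 had an entry in that table, and Cdh13 and Paqr9 had none. A match of letters is a description of the sequence and not a measured site.

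The balance of the receptors can be read within each library, where scaling between libraries drops out. The ratio of Adipor2 to Adipor1 FPKM was 1.64, 2.37 and 1.96 in WT and 3.57, 2.45 and 2.45 in Rarres2-/-. Adipor2 exceeded Adipor1 in every library, and the genotypes were separated only narrowly, by WT replicate 2 and Rarres2-/- replicates 5 and 6. The mean ratio was 1.99 ± 0.368 in WT and 2.82 ± 0.642 in Rarres2-/- (SD, n = 3 each), 1.42 times as high. Without WT replicate 1 and Rarres2-/- replicate 4 the ratio was 1.13 times as high in Rarres2-/-. The ligand gene Adipoq (chromosome 16, 23146536 to 23157968) was at 2315, 2536 and 2563 FPKM in WT and at 2118, 2788 and 2809 FPKM in Rarres2-/-. The genotypes overlapped, and the log2 difference was 0.05 (SE 0.236). Adipoq stood at 16.2, 13.5 and 15.4 times Adipor2 in WT and at 7.29, 11.7 and 11.8 times Adipor2 in Rarres2-/-, so each Rarres2-/- library had less ligand transcript per Adipor2 transcript than any WT library. Adipoq stood at 26.5 to 31.9 times Adipor1 in WT and 26.0 to 28.9 times in Rarres2-/-, with overlap. Rarres2-/- replicate 4 had the lowest Adipoq and the highest Adipor2 of the 6 libraries. These ratios contain the Adipor2 values and are no separate evidence of its difference.

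**Figure D2:**
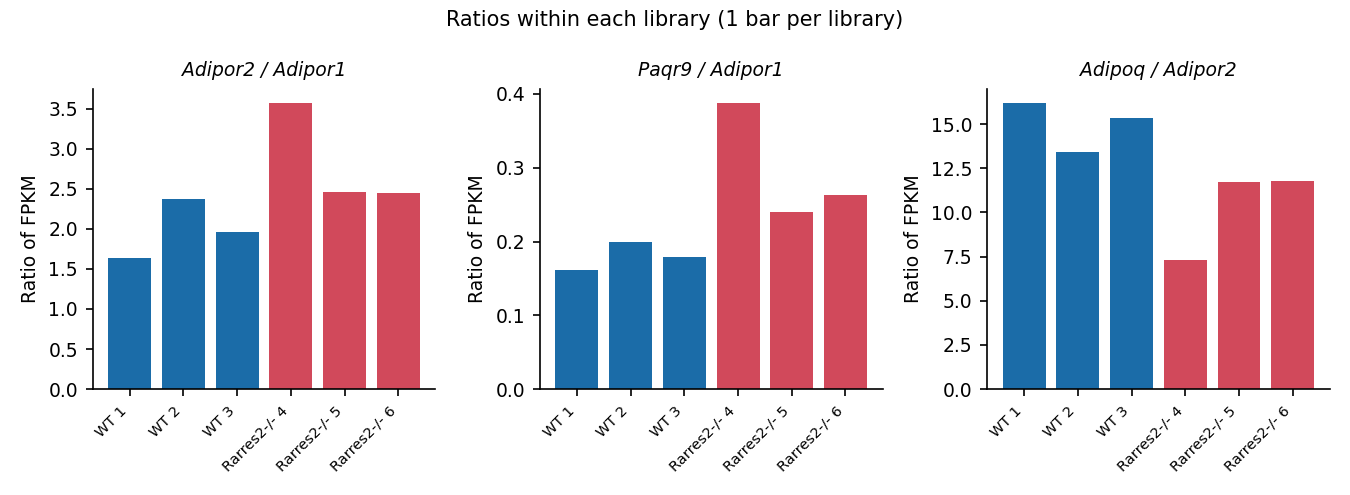
Ratios of FPKM within each library, with 1 bar per library in blue for WT and red for Rarres2-/- and each axis starting at 0. Adipor2 over Adipor1 is at most 2.37 in WT and at least 2.45 in Rarres2-/-, and Adipoq over Adipor2 is at least 13.5 in WT and at most 11.8 in Rarres2-/-.

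Cdh13 (chromosome 8, 118140017 to 119324929), the third adiponectin-binding gene, did not separate the genotypes. It was at 17.7, 4.44 and 4.30 FPKM in WT and at 10.05, 3.83 and 3.51 FPKM in Rarres2-/-. WT replicate 1 and Rarres2-/- replicate 4 held the high values, and the other 4 libraries lay between 3.51 and 4.44 FPKM. The mean was 8.80 ± 7.67 FPKM in WT against 5.80 ± 3.69 FPKM in Rarres2-/- (SD, n = 3 each). The log2 difference was -0.39 (SE 0.569). The difference was 0.21 without WT replicate 1, -0.80 without Rarres2-/- replicate 4, and -0.20 without both. With both left out, Cdh13 was lower in each of the 2 remaining Rarres2-/- libraries than in either remaining WT library. The same held for 2933 of 11086 tested genes, and 3510 were higher. Groups that did not overlap, in either direction, then made up 58.1% of tested genes.

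The same libraries held the most RNA of vessel genes. Endothelial markers summed to 352, 69.5 and 59.8 FPKM in WT and to 207, 59.3 and 65.9 FPKM in Rarres2-/-, and smooth muscle and pericyte markers to 188, 58.3 and 51.1 FPKM and to 188, 62.3 and 74.7 FPKM. No member of either list was at 0 in any library. Tek was the endothelial marker that did not follow, at 10.1 FPKM in WT replicate 1 and 14.6 FPKM in WT replicate 2. Cdh5, the cadherin of endothelial junctions, was at 68.0 FPKM in WT replicate 1 and 36.0 FPKM in Rarres2-/- replicate 4 and at 7.13 to 8.56 FPKM in the others. Cdh13 stood at 0.260 and 0.279 times Cdh5 in those 2 libraries and at 0.409 to 0.604 times in the other 4. The part of vessel content in the Cdh13 values was not tested. Of 14 other cadherin genes with a row, 2 passed the filter, Cdh5 and Cdh19, with log2 differences of -0.22 (SE 0.944) and 0.10 (SE 0.239) and adjusted p of 0.999 each by limma. Cdh19, a Schwann cell cadherin, was at 0.944 to 1.39 FPKM in WT against 0.645 to 1.66 FPKM in Rarres2-/-.

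**Figure D3:**
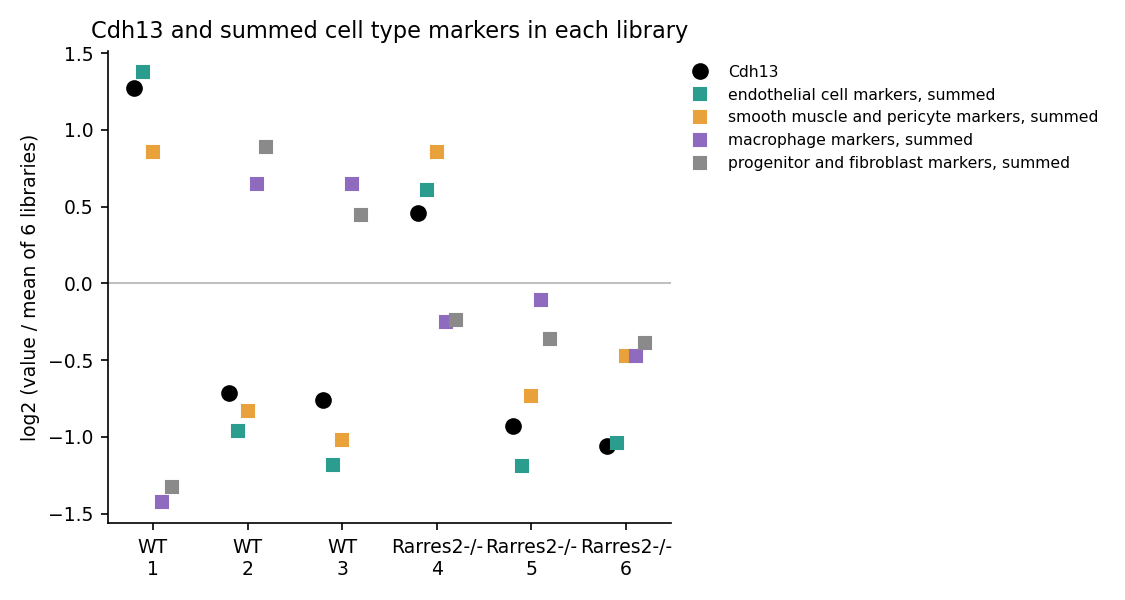
Cdh13 (black) and the summed FPKM of 4 cell type marker lists (coloured squares) in each library, as log2 of the value over its mean across the 6 libraries. Cdh13 lies above its mean only in WT replicate 1 and Rarres2-/- replicate 4, where the endothelial and smooth muscle lists also do.

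Among the membrane progesterone receptors, Paqr9 (chromosome 9, 95559634 to 95568022) was the most abundant and was higher in Rarres2-/-. It was at 14.1, 15.8 and 15.2 FPKM in WT and at 31.6, 23.2 and 25.6 FPKM in Rarres2-/-. The WT values lay close together, and the lowest Rarres2-/- library was above all of them. The mean was 15.0 ± 0.861 FPKM in WT against 26.8 ± 4.30 FPKM in Rarres2-/- (SD, n = 3 each), 1.78 times as high, and the log2 difference was 0.78 (SE 0.158), the largest of the 7 tested members. Without WT replicate 1 and Rarres2-/- replicate 4 it was 0.62. The ratio of Paqr9 to Adipor1 was 0.162, 0.199 and 0.178 in WT and 0.387, 0.240 and 0.263 in Rarres2-/-, with no overlap.

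Paqr7 (chromosome 4, 134496761 to 134510237), which encodes the α form of these receptors, varied little. Its values were 8.55, 6.92 and 7.41 FPKM in WT against 8.14, 8.82 and 8.29 FPKM in Rarres2-/-, with overlap, a highest value 1.27 times the lowest, and a log2 difference of 0.13 (SE 0.131). Paqr9 stood at 1.65, 2.29 and 2.05 times Paqr7 in WT and at 3.88, 2.63 and 3.09 times in Rarres2-/-, which restates the separation of Paqr9 over a gene that varied little. The other 3 genes of the branch were low. Paqr6 (chromosome 3, 88364072 to 88368541), of the δ form, was at 0.917, 1.42 and 0.855 FPKM in WT against 1.25, 0.392 and 0.723 FPKM in Rarres2-/-, with overlap. Paqr8 (chromosome 1, 20890548 to 20939650), of the β form, was at 0.622, 0.158 and 0.208 FPKM in WT against 0.366, 0.125 and 0.1498 FPKM in Rarres2-/-. Its highest values were in WT replicate 1 and Rarres2-/- replicate 4, as for Cdh13, and its log2 difference of -0.12 was 0.03 without WT replicate 1. Paqr5, of the γ form, did not exceed 0.111 FPKM in any library.

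The remaining members overlapped between genotypes. Paqr4 (chromosome 17, 23736186 to 23740899), reported to stabilise the cell cycle kinase Cdk4, was at 21.1, 18.1 and 15.9 FPKM in WT against 17.5, 20.4 and 26.3 FPKM in Rarres2-/-. Its log2 difference was 0.20 (SE 0.194), and was 0.05 without Rarres2-/- replicate 6 and 0.43 without WT replicate 1 and Rarres2-/- replicate 4. Paqr3 (chromosome 5, 97081364 to 97111749), a Golgi protein that tethers Raf kinase and the sterol sensor complex of Scap, was at 0.853, 1.19 and 1.48 FPKM in WT against 2.01, 1.02 and 0.871 FPKM in Rarres2-/-. Its log2 difference of 0.06 (SE 0.238) was -0.05 without WT replicate 1 and -0.15 without Rarres2-/- replicate 4, so its direction was set by single libraries.

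Mmd, a further gene of the family (chromosome 11, 90249276 to 90278573, first known from maturing macrophages), was above every other family gene in each library, at 240, 331 and 364 FPKM in WT against 363, 525 and 536 FPKM in Rarres2-/-. Rarres2-/- replicate 4 lay just below WT replicate 3, and the other Rarres2-/- libraries were above all WT libraries. The mean was 312 ± 64.1 FPKM in WT against 475 ± 97.0 FPKM in Rarres2-/- (SD, n = 3 each). The log2 difference was 0.60 (SE 0.256) and adjusted p = 0.999 by limma. Of 12 tested macrophage markers, 12 had a log2 difference below 0 (median -0.24), where 48.6% of all tested genes were above 0. Their groups all overlapped, and their sum was lowest in WT replicate 1. The part of macrophage content in the Mmd values was not tested. Mmd2, its close relative, was at 0.117 to 0.203 FPKM in WT against 0.119 to 0.540 FPKM in Rarres2-/-.

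The shape of each profile over the 6 libraries was compared with those of 10473 other tested genes. Tested genes with a predicted-model, clone or accession-type symbol, such as those ending in Rik, were left out of this ranking. The measure was the root mean square distance between centred log2(FPKM + 1) values. The gene nearest to Paqr9 was Adipor2, at a distance of 0.116, where the median gene was at 0.483, followed by Slc35e4 (0.121) and Maff, a small Maf transcription factor (0.127). Paqr9 ranked 11 among the neighbours of Adipor2, whose nearest genes were Fam46b (0.0857), Atxn7l1 (0.102) and Aplp2 (0.102). Fam46b was low, at 0.605 to 2.025 FPKM, where log2(FPKM + 1) understates changes. Paqr9 and Adipor2 both had separated genotypes, which by itself brings their profiles close. After each genotype's mean was taken off, Adipor2 ranked 273 among the neighbours of Paqr9, within the nearest 2.61%. Adipor2 had been picked as nearest to Paqr9 over these same libraries, by a distance that includes these within-genotype values. That rank is therefore partly given by the choice and is no separate evidence of a shared pattern. Both genes were highest within Rarres2-/- in replicate 4, by 0.19 for Adipor2 and 0.24 for Paqr9 on the log2 scale, and lowest within WT in replicate 1, by -0.21 and -0.08. Adipor1, which varied little, was nearest to Vps37a (0.0283), Celf1 (0.0317) and Dnajb11 (0.0339), and Adipor2 ranked 7654 among its neighbours. Cdh13 was nearest to Nrgn (0.0691), Nova2 (0.0857) and Pcdh1 (0.101), of which each was highest in WT replicate 1 and next in Rarres2-/- replicate 4. Nrgn and Nova2 were low, at 0.324 to 3.96 and 0.261 to 3.65 FPKM. For such genes a small distance on the log2(FPKM + 1) scale does not mean equal fold changes.

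Genes around the receptors were read from 7 lists besides the cadherins, chosen with earlier results of these data known. The genes given with a difference are up to 3 of each list with the smallest p in this same fit. They therefore do not represent their list. In each list 0 members passed the test in either direction. The median log2 difference of all tested genes was -0.01, and 48.6% of them were above 0. Of 19 tested genes of adiponectin receptor signalling, 13 had a difference above 0 and 6 below (median 0.05, from 0.01 without WT replicate 1 to 0.11 without Rarres2-/- replicate 4). The groups did not overlap in 3 of the 19, beside 10.3% of tested genes. These were Camkk2, Prkag2 and Prkaa2, each higher in Rarres2-/-. Camkk2, a kinase that activates AMP-activated protein kinase, was at 7.39, 8.14 and 8.54 FPKM in WT against 13.01, 12.1 and 11.5 FPKM in Rarres2-/-. Its log2 difference was 0.55 (SE 0.127; limma, adjusted p = 0.939). Prkag2 and Prkaa2, which encode a regulatory and a catalytic subunit of that kinase, had log2 differences of 0.39 (SE 0.169) and 0.29 (SE 0.152), and an adjusted p of 0.999 each. Prkaa2 was low, at 1.82 to 1.87 FPKM in WT against 2.15 to 2.97 FPKM in Rarres2-/-.

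Of 6 genes for adiponectin and its folding in the endoplasmic reticulum, 5 had a difference above 0 (median 0.07, and -0.02 without WT replicate 1). Ero1l, an oxidase of that compartment, was at 4.81 to 6.97 FPKM in WT against 7.24 to 8.01 FPKM in Rarres2-/-, and Hspa5 and Gstk1 overlapped, with log2 differences of 0.23 and -0.20. Of 16 tested ceramide and sphingosine genes, 8 were above 0 and 8 below (median 0.02, and -0.06 without Rarres2-/- replicate 4). The ceramide synthase genes Cers1, Cers2, Cers4, Cers5 and Cers6 were matched to no row, so the list does not cover them. The tested genes included Degs1, the desaturase that completes ceramide, at 0.35 (SE 0.242), and Sphk2, a sphingosine kinase, at -0.40 (SE 0.292). S1pr2, a receptor for sphingosine 1-phosphate, was at -0.56 (SE 0.268), and all 3 had overlapping groups. By limma, adjusted p was 0.999 for these 3.

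Of 8 tested desaturases and elongases, which set membrane fluidity, 7 had a difference above 0 (median 0.11, from 0.04 without Rarres2-/- replicate 5 to 0.38 without Rarres2-/- replicate 4). Fads3, a desaturase of sphingoid bases, was at 87.7, 74.6 and 67.7 FPKM in WT against 126, 122 and 139 FPKM in Rarres2-/-, with no overlap, a log2 difference of 0.75 (SE 0.168) and adjusted p = 0.939. Scd1, the main desaturase of adipocytes, was at 5188 to 7085 FPKM in WT against 6942 to 12679 FPKM in Rarres2-/-, and Elovl6 at 36.4 to 65.5 and 27.4 to 120 FPKM, both with overlap. Of 5 tested progesterone receptor and binding genes, 3 were above 0 (median 0.15, from 0.07 without Rarres2-/- replicate 6 to 0.25 without Rarres2-/- replicate 4, and 0.08 with no filter). Pgrmc2, a haem-binding membrane protein, was at 57.0 to 59.7 FPKM in WT against 67.2 to 74.5 FPKM in Rarres2-/-, and its relative Pgrmc1 overlapped, at 0.24 (SE 0.185), as did Cyb5d2 at 0.15 (SE 0.147). Of 10 genes around Raf and Scap, which Paqr3 tethers at the Golgi, 8 were above 0 (median 0.14). Among them were Insig1 and Insig2, which hold Scap in the endoplasmic reticulum, at 0.42 (SE 0.251) and 0.34 (SE 0.247). The protease gene Mbtps2 was at 0.21 (SE 0.188), and the groups overlapped for each of these. Of 11 tested C1q/TNF paralogs of adiponectin, 3 were above 0 and 8 below (median -0.29). That median moved to -0.53 when WT replicate 1 was left out, to -0.06 when WT replicate 2 was, and to -0.05 when WT replicate 3 was. The list shares C1qa, C1qb and C1qc with the macrophage markers, and its sum, 431, 1234 and 1195 FPKM in WT against 642 to 780 FPKM in Rarres2-/-, was lowest in WT replicate 1, as was that of the macrophage markers. Its C1qtnf2, C1qtnf5 and C1qtnf6 had log2 differences of -0.55 (SE 0.339), -0.49 (SE 0.248) and -0.32 (SE 0.449), with overlapping groups.

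**Figure D4:**
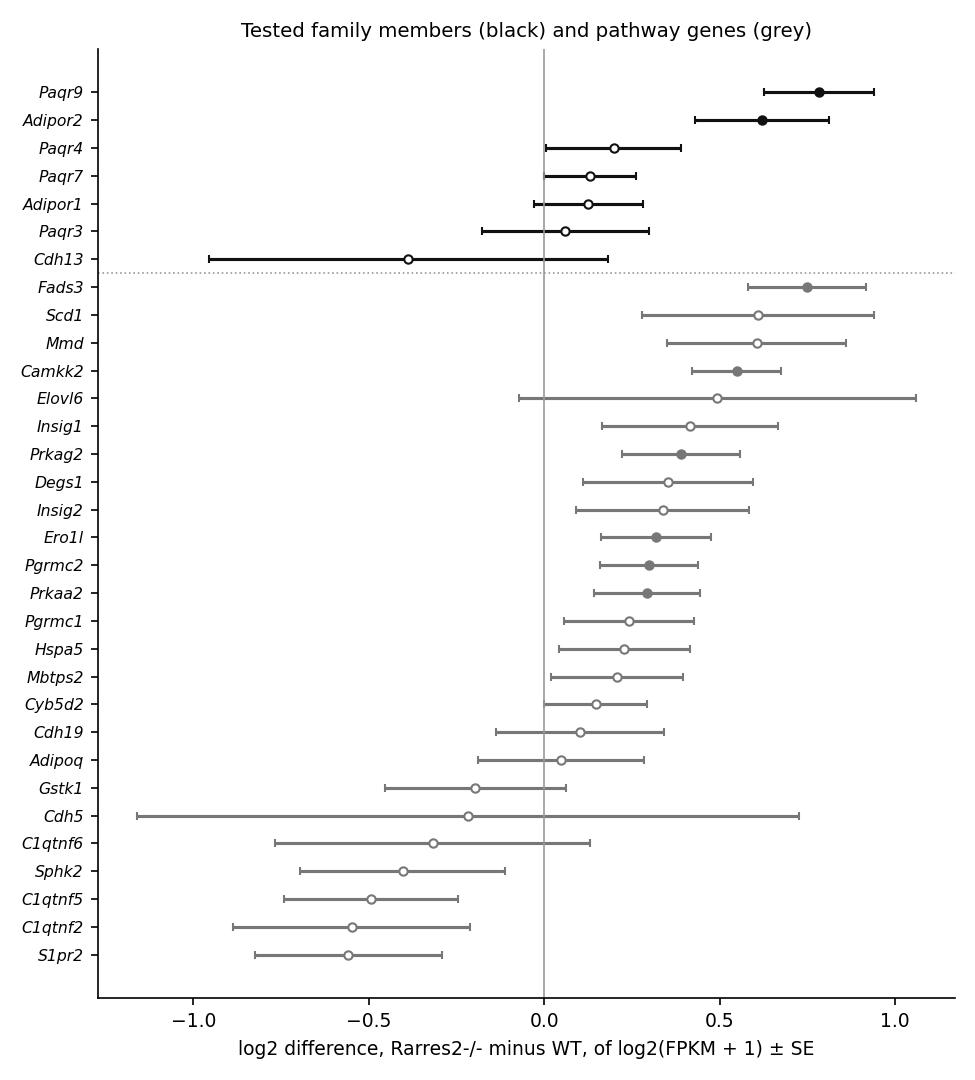
Difference between genotypes (Rarres2-/- minus WT, log2 scale) of the tested family members in black and of further PAQR and pathway genes in grey, with bars for the SE of the limma fit (n = 3 each). Filled points mark genes whose groups do not overlap; of the members these are Adipor2 and Paqr9.

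The differences of Adipor2 and Paqr9 kept their sign in each of 15 alternative settings. For most settings this was fixed beforehand, because all their Rarres2-/- values lay above all their WT values. Left-out libraries, weights, filters, a pseudocount or no trend cannot reverse such a sign, and only another scaling could have. The Adipor2 difference ran from 0.42 to 0.72 and that of Paqr9 from 0.58 to 0.88 on the log2 scale. Adipor1 stayed between 0.08 and 0.24 and Paqr7 between 0.07 and 0.25. Cdh13, Paqr3 and Paqr8 changed sign in at least 1 setting, by the libraries named beside their values and, for Paqr3, also with array weights.

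**Figure D5:**
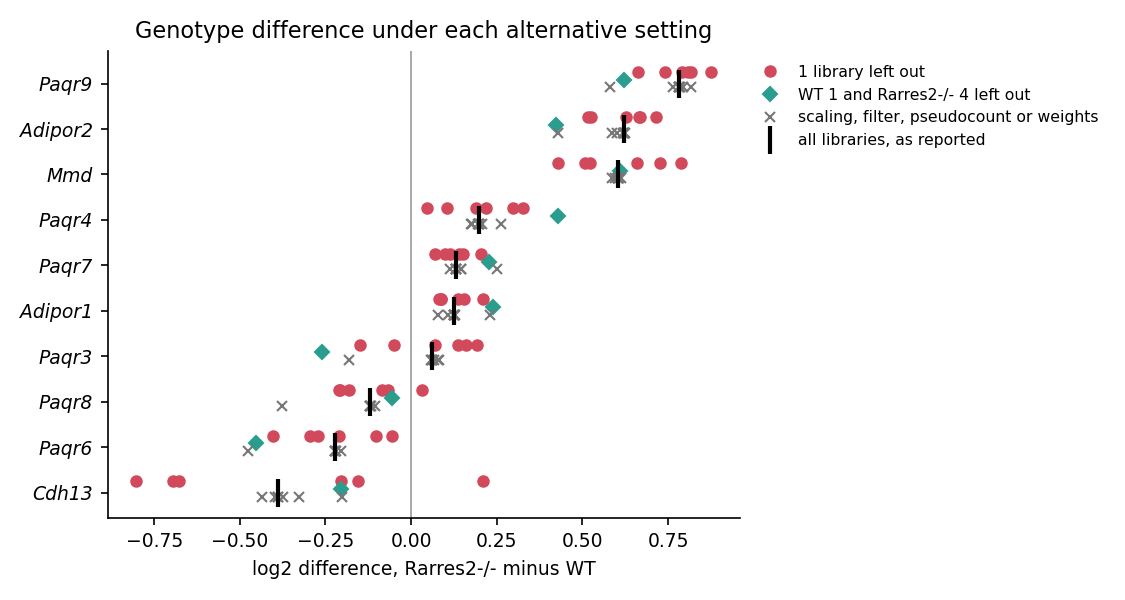
Genotype difference (log2 scale, horizontal axis) of 10 family genes with all libraries (black bar), with 1 library left out (red), with WT replicate 1 and Rarres2-/- replicate 4 left out (green), and with another scaling, filter, pseudocount or weighting (grey). Paqr9, Adipor2 and Mmd stay to the right of 0 in all settings, and Cdh13, Paqr3 and Paqr8 cross it. For Paqr9 and Adipor2, whose groups did not overlap, only another scaling could have moved a point across 0.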

How the data were processed

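RNA-seq values of 6 libraries are FPKM as deposited by the authors in 1 table for each library, per the file headers. In WT replicate 3 the value column has the sample name as its header, with no unit, and it was read as FPKM because its gene rows, decimals and scale matched the others. Bowtie and mm10 are named in the submitters' processing notes. The quantifying program, annotation, strandedness and versions were not given in the sources used here. Without counts in the files, absolute depth is unknown, and no counting interval can be given. Relative depth came from the most common ratio of values below 0.15 FPKM between libraries. The 737 rows without a symbol (0.793% to 4.91% of the summed values) were left out. Summed FPKM of named genes was 500311 to 809109 in 5 libraries and 1.88e+06 in WT replicate 1, where Snord2 held 62.1%.

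Genes whose mean reached 1 FPKM were tested on log2(FPKM + 1), which understates changes of low genes. The test was that of limma 3.58.1 in R 4.3.3 (eBayes with trend, two-sided, genotype as the only term), with p-values adjusted over all tested genes. Members and lists were chosen with earlier results of these data known. Beside the members, the text names further PAQR genes, Adipoq, Rarres2, up to 3 genes of each list by smallest p, and the 3 nearest profiles of 4 members. Coordinates and sequences are those of RefSeq on GRCm38.p6, the assembly that mm10 stands for. Alternatives were other scalings, filters, a pseudocount of 0.1, no trend, array weights and left-out libraries.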

Additional observations from a re-analysis of the deposited data

How the results depend on the processing

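By limma, 0 genes were called in the fit reported. The count was 1 with upper-quartile scaling, with scaling without the 20 most abundant genes, and with a filter of 5 FPKM in 3 libraries (Rarres2 each time), and 0 with quantile normalization, a pseudocount of 0.1, no filter or no trend. With 1 library left out it ran from 0 to 1. Leaving out WT replicate 1 and Rarres2-/- replicate 4, chosen after seeing the data, gave 68 genes with the 11086 genes of the full fit. It gave 177 of 10925 when the filter was taken over the 4 libraries left. The fixed gene set was preferred after both counts had been seen. With array weights, which rest on Rarres2-/- replicate 5 (weight 6.19), it was 1524, but the estimate of the weights stopped before it reached its convergence tolerance, so that count is uncertain. Calls of the 9 members are not read as tests under any setting. The log2 differences of Adipor2 and Paqr9 with array weights were 0.43 and 0.58. Genes whose groups did not overlap numbered 1146, 1531 to 3812 with 1 library left out and 6443 without both (6402 with the filter over the 4 libraries left). Fewer libraries make overlap rarer by construction. The last counts also rest on leaving out libraries chosen after seeing the data, and the part of each was not tested. The sign reversed for Cdh13 without WT replicate 1 (0.21), for Paqr8 without WT replicate 1 (0.03), and for Paqr3 without WT replicate 1 (-0.05), without Rarres2-/- replicate 4 (-0.15), without both (-0.26) and with array weights (-0.18); the cause was not tested. With 1 library left out, Cdh13 ran from -0.80 to 0.21, Paqr8 from -0.21 to 0.032 and Paqr3 from -0.15 to 0.19. The Adipor2 to Adipor1 ratio, 1.42 times as high in Rarres2-/-, ran from 1.23 to 1.57 with 1 library left out. No paired analysis was possible because the genotypes share no replicate numbers. Paqr6, Paqr8, Mmd2 and Paqr5 have means below 1 FPKM over the 6 libraries (Paqr6 exceeds it in 2), where the unknown depth limits any comparison.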
